A study of Homo sapiens with 9 samples.

Results

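Trimethylamine N-oxide (TMAO), a metabolite that the liver makes from trimethylamine released by gut bacteria, was added to HMEC-1, an established human dermal microvascular endothelial line, and the mean of the 24H and 48H transcriptomes, each weighted 50%, was set against that of untreated cells. The 9 libraries were 3 from control cultures (CTRL), 3 from cells given 50 µM TMAO for 24H and 3 from cells given 50 µM TMAO for 48H, all from the same line kept in medium with reduced serum. Of 14740 genes tested, 140 differed from CTRL in the mean of both times at an adjusted p under 0.05 and lay on the same side of CTRL at 24H and at 48H. Of these, 41 were higher and 99 were lower. Both times were set against the same 3 CTRL libraries, and the genes were selected on the mean of both times. Agreement of sign is therefore partly built in and is not replication across times. The line is a single immortalised one, and the labels do not say whether libraries of a group came from separate cultures, so that p-values measure only the spread between these libraries. The study pooled the controls of its time-points, and TMAO therefore cannot be told apart from time in culture at either time.

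Endothelial cells line vessels, control tone and leukocyte entry, and rest on a basement membrane of laminins and collagens that they secrete. TMAO is a small organic osmolyte that stabilises folded proteins, and its level in blood is studied as a marker of vascular disease. Endothelial identity is set by transcription factors of the ETS, SOX and KLF families. JAG1 and JAG2 are ligands of the Notch pathway, and the SREBP factors govern lipid supply.

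Total counts per library ranged from 25205756 to 36927373. Ribosomal RNA (6 genes) took 1.64% to 7.46% of the counts of 8 libraries and 31.5% of those of TMAO 24H replicate 1, and TMAO 48H replicate 3 stood apart in KRT5 (125 normalised counts, against a median of 1100 over all libraries) and KRT14 (67.9 against 711). Of 32 endothelial markers, CDH5 (16800 to 22700 normalised counts) and PECAM1 (8440 to 11100) were among those high in all 9 libraries. Others were low: PLVAP (52.9 to 145), CLDN5 (36.8 to 57.4), ANGPT2 (16.7 to 52.6), LYVE1 (3.89 to 13.6) and PROX1 (1.15 to 8.96). Of the leukocyte markers PTPRC lay between 0 and 3.02, CD14 between 23.5 and 39.9 and CD68, also a lysosomal protein, between 553 and 669. Without TMAO 24H replicate 1, 73 of the 140 genes still passed the test and 80 genes passed it on the same side in all. Without TMAO 48H replicate 3, the numbers were 136 of 140 and 284. Of the 140 genes, 16 still passed without CTRL replicate 1, 17 without CTRL replicate 2, 25 without TMAO 24H replicate 2, 53 without TMAO 48H replicate 2 and 83 without CTRL replicate 3.

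The mean of both times differed from CTRL in 172 genes (1.17% of those tested), of which 48 were higher (0.326%) and 124 lower (0.841%) by edgeR's quasi-likelihood test with Benjamini-Hochberg adjustment. At the 1.4-fold threshold of the study's methods, 20 genes (0.136%) remained, 4 higher (0.0271%) and 16 lower (0.109%). The 140 genes on the same side at both times were 0.950% of those tested (0.278% higher and 0.672% lower). Their changes were small: the median log2 fold change of the 41 higher genes was 0.14 at 24H, 0.34 at 48H and 0.23 in the mean, and that of the 99 lower genes was -0.16, -0.40 and -0.29, against medians within 0.01 of 0 over all tested genes. In 89 of the 140 genes, 28 higher and 61 lower, all 6 TMAO libraries lay beyond all 3 CTRL libraries, an arrangement that 5.52% of all tested genes showed (2.71% higher and 2.82% lower). The 140 genes were selected on these same libraries, so the larger share among them is largely built in and is no further evidence.

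The same sign at both times did not mean that each time passed the test by itself. Each time alone was past an unadjusted p of 0.05 in 90 of the 140 genes, 27 higher and 63 lower. After adjustment over all tested genes, 138 of the 140 passed at 48H and 1, RHOB, at 24H, where 14 genes passed in all (0.0950%). At 48H 1537 genes passed (10.4%), of which 170 were also called in the mean. In a contrast of the same fit that leaves CTRL out, 48H and 24H differed in 81 of the 140 genes (7.53% of all tested genes differed), with the larger change at 48H in 80 of them and at 24H in RHOB. For the remaining 59 genes the difference between the times did not pass the test.

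**Figure D1:**
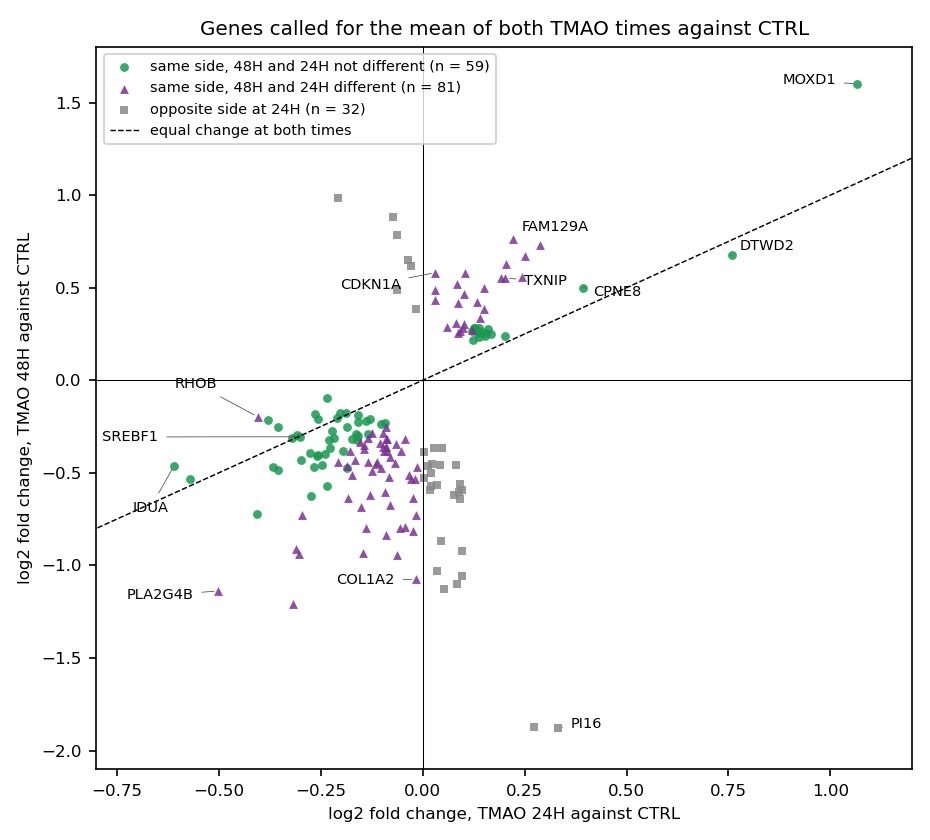
Each point is 1 of the 172 genes called for the mean of both TMAO times, placed by its log2 fold change against CTRL at 24H (horizontal axis) and at 48H (vertical axis). The 59 genes in green circles are those whose difference between the times did not pass the test, so their place near the dashed line of equal change follows from how they were chosen. The 81 in purple triangles differ between the times and mostly lie farther from 0 at 48H. The 32 grey squares lie on opposite sides of CTRL, and none of them passed the test at 24H.

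Members of the higher and the lower group differed in base composition. The median GC content of the longest annotated transcript was 40.5% for the 41 higher genes and 61.0% for 97 of the 99 lower genes, against 48.7% over the 13898 tested genes with a value. Genes were taken from the 10% of tested genes richest in GC (61.8% or more) and the 10% poorest (38.6% or less). Those above a mean log2 CPM of 2 were kept. The GC-rich genes had a median below the CTRL mean in all 6 TMAO libraries, from -0.129 to -0.03 on the log2 scale. Their medians in the CTRL libraries lay between -0.0366 and 0.0241. The GC-poor genes had medians of -0.00902 to 0.114 in the TMAO libraries and -0.0397 to 0.0371 in CTRL. In a fit with offsets for GC content, 138 of 138 members kept the sign of their mean change and 72 still passed the test, 21 higher and 51 lower. In that fit 3 of them no longer lay on the same side of CTRL at both times: COL18A1 (0.0301 at 24H and -0.248 at 48H), MEGF6 (-0.144 and 0.0433) and UNC5B (0.00233 and -0.455). That fit called 128 genes, and its 37 higher and 91 lower genes had median GC contents of 51.8% and 50.8%. In a fit of the same genes without these offsets, 138 of 138 members passed. Beside the genes described most fully, the adjusted p with GC offsets is given as well.

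**Figure D2:**
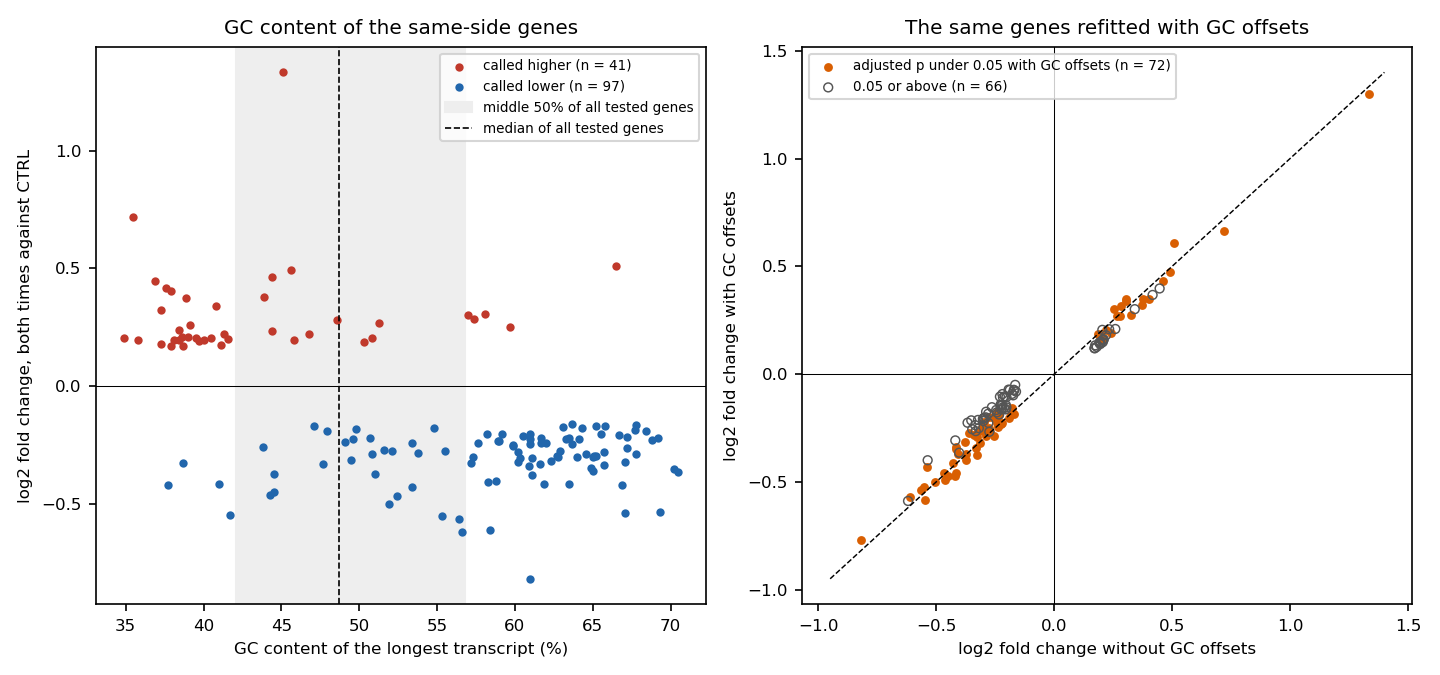
Left, the log2 fold change of 138 same-side genes for the mean of both times (vertical axis) is plotted against the GC percent of their longest transcript; 41 higher genes are red, 97 lower genes blue, and the grey band holds the middle 50% of all tested genes. Right, the log2 fold changes of the same genes are plotted without (horizontal) and with (vertical) GC offsets; all 138 keep the sign of the mean change, and 72 keep an adjusted p under 0.05.

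SREBF1, the transcription factor that drives fatty acid and sterol synthesis genes, was lower to nearly the same extent at both times. Its normalised counts were 3245, 3246 and 3043 in CTRL, 2495, 2523 and 2727 at 24H, and 2584, 2400 and 2733 at 48H. All 6 TMAO libraries lay below the lowest CTRL library, and the 24H and 48H libraries overlapped. SREBF1 was taken by a naming rule, given with the processing, that required every TMAO library to lie beyond every CTRL library. The rule ranked genes by the lesser change of both times, which favours similar changes. This separation from CTRL is therefore no further evidence for SREBF1, IGFBP3, JAG2, SIX2, IDUA, DTWD2 or other genes taken by the rule. The mean change was -0.30 on the log2 scale (standard error 0.046, adjusted p = 0.0103, and 0.0225 with GC offsets), with -0.30 at 24H and -0.31 at 48H. The 48H minus 24H difference was -0.01, with a 95% interval of -0.12 to 0.11. The annotated span of SREBF1 overlaps that of RAI1, a more abundant gene with a mean change of -0.04 (adjusted p = 0.669), and the counts of both genes summed gave -0.143 (adjusted p = 0.102). Of 33 tested sterol and fatty acid synthesis genes, SREBF1 was the 1 called, and the list's median was 0.02.

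IGFBP3, which binds insulin-like growth factors in serum and matrix, had 704, 758 and 703 normalised counts in CTRL, 568, 567 and 599 at 24H and 542, 627 and 577 at 48H. It was lower in all 6 TMAO libraries, by 0.32 on the log2 scale at 24H and 0.31 at 48H, and its mean log2 change was -0.31 (standard error 0.058, adjusted p = 0.0211, and 0.0159 with GC offsets). The difference between the times had a 95% interval of -0.14 to 0.16. It was also the 1 gene called, lower, among 21 tested YAP and TEAD target genes (median -0.03). IGFBP7, a related secreted protein abundant in endothelium, was lower by 0.23 and 0.32 at 24H and 48H (mean log2 change -0.28, adjusted p = 0.0428, and 0.0626 with GC offsets). IGFBP7 and the next gene were chosen after their values were seen.

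RHOB, a small GTPase of endosomes and actin that is induced rapidly by growth factors, was the gene that passed the test at each time by itself. Its normalised counts were 8126, 8996 and 8058 in CTRL, 6317, 6021 and 6697 at 24H, and 7742, 7097 and 7112 at 48H. The 24H libraries were lowest, the 48H libraries lay between them and CTRL, and no library of 1 group overlapped another group. The log2 change was -0.40 at 24H (adjusted p = 0.0115), -0.20 at 48H (adjusted p = 0.0379) and -0.30 in the mean (standard error 0.047, adjusted p = 0.0122, and 0.0157 with GC offsets), and the return towards CTRL from 24H to 48H of 0.21 passed the test (adjusted p = 0.0385). Among 23 immediate early genes, which growth factors and stress induce within minutes, IER2 (mean log2 change -0.22, adjusted p = 0.0265) and the flow-responsive factor KLF2 (-0.30, adjusted p = 0.0275) were lower and BTG2, an inhibitor of proliferation, was higher (0.19, adjusted p = 0.0242). KLF2 was at 1907, 2030 and 1896 normalised counts in CTRL, 1331, 1489 and 1662 at 24H and 1655, 1740 and 1628 at 48H, and passed at neither time by itself (adjusted p = 0.0655 and 0.0599). With GC offsets KLF2 had an adjusted p of 0.0908 and IER2 of 0.1. The list's median was -0.04 in the mean of both times, -0.26 at 24H and 0.14 at 48H. Over all tested genes, 0.841% were called lower and 0.326% higher.

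JAG2, a Notch ligand, had 2017, 1953 and 1834 normalised counts in CTRL, 1589, 1434 and 1665 at 24H and 1478, 1642 and 1616 at 48H. The 2 TMAO groups overlapped each other and not CTRL, and the log2 change was -0.31 at 24H, -0.29 at 48H and -0.30 in the mean (standard error 0.053, adjusted p = 0.0162, and 0.0816 with GC offsets). Other Notch genes, chosen after their values were seen, were also lower in the mean: the ligand JAG1 by 0.23, DTX4, a member of the Deltex family, by 0.24 and MIB2, a ubiquitin ligase that acts on Notch ligands, by 0.19 on the log2 scale. Their adjusted p-values were 0.0278, 0.0145 and 0.0362, and 0.02, 0.012 and 0.37 with GC offsets. At 24H JAG1 had moved by -0.09 and DTX4 by -0.01, so that these averages came mostly from 48H.

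SIX2, a homeobox factor, was at 384, 414 and 384 normalised counts in CTRL, 291, 297 and 328 at 24H and 279, 295 and 280 at 48H. It was lower in all 6 TMAO libraries, with a log2 change of -0.37 at 24H, -0.47 at 48H and -0.42 in the mean (standard error 0.069, adjusted p = 0.0145, and 0.0225 with GC offsets). Among other transcription factors chosen after their values were seen, HOXD9 (-0.23 at 24H and -0.37 at 48H), the T-box factor TBX1 (-0.25 and -0.46), and the nuclear receptors NR2F1 (-0.26 and -0.21) and NR2F2 (-0.19 and -0.17), the latter known for venous identity, were lower at both times. Their adjusted p-values in the mean were 0.00964, 0.0245, 0.0489 and 0.0493, and 0.0193, 0.157, 0.0838 and 0.0249 with GC offsets. HIC1, a transcriptional repressor, moved by -0.15 at 24H and -0.69 at 48H (adjusted p in the mean 0.00441, and 0.00796 with GC offsets).

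Some of the other named genes that were lower had uncertain counts or GC-rich transcripts as well. The longest transcripts of SREBF1, JAG2 and SIX2 were 62.8%, 64% and 61.9% GC. IDUA, the lysosomal iduronidase that degrades heparan and dermatan sulphate, had 263, 279 and 277 normalised counts in CTRL, 161, 169 and 206 at 24H and 172, 223 and 198 at 48H. Its fall at 24H, -0.61 on the log2 scale, was the largest among the 12 lower genes taken by the naming rule, and was followed by -0.46 at 48H (mean -0.54, standard error 0.102, adjusted p = 0.0249). With GC offsets its adjusted p was 0.0716, and summed with SLC26A1, whose span overlaps it, -0.402 (adjusted p = 0.0248). PLA2G4B, a cytosolic phospholipase, had the largest mean fall of the 140 genes, -0.82 (adjusted p = 0.00596, and 0.00527 with GC offsets), but its span overlaps the readthrough gene JMJD7-PLA2G4B, which had a mean change of 0.51, and summed counts of both gave -0.2 (adjusted p = 0.286). LOC613037, listed in RefSeq as NPIPB13, and LOC101060321, listed as TBC1D3G, belong to families of near-identical copies between which reads can be split; their mean log2 changes were -0.55 and -0.56, with adjusted p-values of 0.0422 and 0.0271 with GC offsets.

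SEMA3G, a semaphorin secreted by endothelium, was at 107, 116 and 121 normalised counts in CTRL, 104, 78.9 and 94.0 at 24H and 60.5, 64.3 and 57.5 at 48H. It fell by 0.31 on the log2 scale at 24H and by 0.91 at 48H (mean -0.61, adjusted p = 0.0334, and 0.0495 with GC offsets), and the times differed (adjusted p = 0.0262). The long non-coding RNA LOC102723360 behaved likewise (-0.30 and -0.73). KLHL17, an actin-binding Kelch protein (-0.30 at 24H and -0.43 at 48H), and FAM89B (-0.36 and -0.48) were lower in the mean, and their difference between the times did not pass the test, with adjusted p-values in the mean of 0.0145 and 0.0242, and 0.0422 and 0.0663 with GC offsets.

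DTWD2, which modifies uridines in transfer RNA, had the largest rise at 24H among the 12 higher genes taken by the naming rule. Its normalised counts were 49.7, 51.8 and 47.4 in CTRL, 85.1, 81.6 and 85.1 at 24H, and 74.5, 81.0 and 82.9 at 48H. All 6 TMAO libraries lay above all 3 CTRL libraries, and the rise was 1.69-fold at 24H, 1.60-fold at 48H and 1.64-fold in the mean (log2 0.72, standard error 0.128, adjusted p = 0.0180, and 0.044 with GC offsets). CPNE8, a calcium-dependent membrane-binding copine, rose from 164, 162 and 173 normalised counts to 204, 232 and 219 at 24H and 251, 248 and 207 at 48H (mean log2 change 0.45, adjusted p = 0.0377, and 0.0555 with GC offsets). MOXD1, a copper monooxygenase related to dopamine beta-hydroxylase, had the largest mean rise of all 140 genes, 2.52-fold (adjusted p = 0.0145, and 0.02 with GC offsets), but only 13.9 to 20.4 normalised counts in CTRL against 28.7 to 43.7 at 24H and 52.8 to 57.5 at 48H; it was chosen after its values were seen.

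Among the other higher genes, TXNIP, which binds thioredoxin and restrains glucose uptake, had 3110, 2907 and 3285 normalised counts in CTRL, 3412, 3740 and 3555 at 24H and 4622, 4758 and 4246 at 48H. The 3 groups did not overlap, and the log2 change of 0.20 at 24H was followed by 0.55 at 48H (mean 0.38, standard error 0.049, adjusted p = 0.00378, and 0.00561 with GC offsets). MME, or neprilysin, a surface peptidase that degrades vasoactive peptides, rose from 1244, 1232 and 1119 normalised counts to 1469, 1300 and 1343 at 24H and 1755, 1805 and 1713 at 48H (0.19 and 0.55 on the log2 scale; mean 0.37, adjusted p = 0.00445, and 0.0113 with GC offsets). FAM129A, or Niban, a stress-induced protein, rose by 0.22 and 0.76, with libraries at 523 to 549 normalised counts in CTRL, 618 to 627 at 24H and 837 or more at 48H (adjusted p = 0.00191, and 0.00114 with GC offsets). The tyrosine kinase FER (0.24 and 0.56, adjusted p = 0.0273, and 0.0442 with GC offsets) and SPEG, a kinase of striated muscle (0.29 and 0.73, adjusted p = 0.0377, and 0.021 with GC offsets), also rose more by 48H.

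For the remaining named genes the rise was small and its difference between the times did not pass the test. C15orf38, or ARPIN, an inhibitor of the Arp2/3 actin nucleator, was at 1999 to 2038 normalised counts in CTRL, 2251 to 2371 at 24H and 2323 to 2484 at 48H. Its mean change was 1.16-fold (adjusted p = 0.0145, and 0.0206 with GC offsets), and the 95% interval of the difference between the times was -0.06 to 0.13 on the log2 scale. DMXL1, linked to vesicle acidification, CEP350, a centrosomal protein, TAOK1, a kinase upstream of p38 and Hippo signalling, and CASC5, or KNL1, a kinetochore scaffold, had mean changes of 1.16-fold, 1.16-fold, 1.15-fold and 1.15-fold. These 4 genes have long transcripts of 38.1% to 41.3% GC, and with GC offsets none of the 4 passed (adjusted p = 0.0626, 0.0959, 0.0791 and 0.0899).

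**Figure D3:**
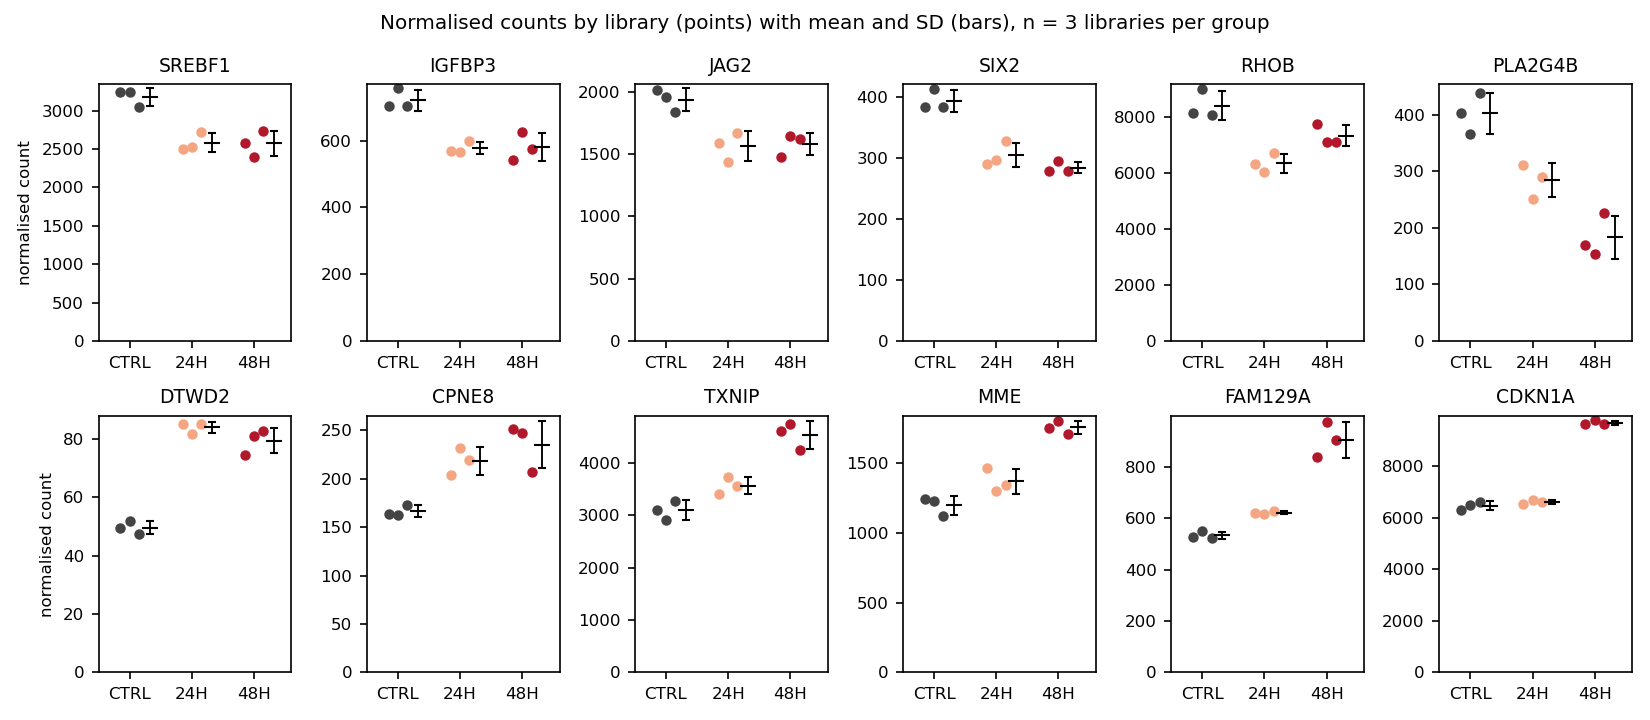
Normalised counts of 12 genes (vertical axes, starting at 0) in each of the 9 libraries (points) with the mean and SD of each group of 3 (bars). SREBF1, IGFBP3, JAG2 and SIX2 lie below CTRL at 24H and 48H, RHOB is lowest at 24H, DTWD2 lies above CTRL at both times, and CDKN1A stands clear of CTRL at 48H. For SREBF1, IGFBP3, JAG2, SIX2 and DTWD2 the separation from CTRL was required by the naming rule.

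Promoters of 3 lower genes (SREBF1, IGFBP3 and RHOB) and 2 higher genes (TXNIP and DTWD2) are shown because their counts carry the patterns above. Each runs 5′ to 3′ from 250 bases before to 50 bases after the RefSeq start (GRCh38.p14), and capitals mark matches, on either strand, to GGGCGG (the GC box), to CCAAT (a motif bound by factor NF-Y), to TATAAA (the core of the TATA box) or to CACGTG (an E-box). In RHOB a GC box abuts a CCAAT box. The positions are chr17:17836937-17837236 (minus strand) for SREBF1, chr7:45921223-45921522 (minus) for IGFBP3, chr2:20446824-20447123 (plus) for RHOB, chr1:145996530-145996829 (minus) for TXNIP and chr5:118988498-118988797 (minus) for DTWD2.
SREBF1: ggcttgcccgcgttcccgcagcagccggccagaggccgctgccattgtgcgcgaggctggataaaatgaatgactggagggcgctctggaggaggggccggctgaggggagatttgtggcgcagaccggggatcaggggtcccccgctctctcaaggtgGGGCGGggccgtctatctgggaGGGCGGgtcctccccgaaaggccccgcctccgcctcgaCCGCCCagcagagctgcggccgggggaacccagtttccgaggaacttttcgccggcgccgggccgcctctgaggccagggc
IGFBP3: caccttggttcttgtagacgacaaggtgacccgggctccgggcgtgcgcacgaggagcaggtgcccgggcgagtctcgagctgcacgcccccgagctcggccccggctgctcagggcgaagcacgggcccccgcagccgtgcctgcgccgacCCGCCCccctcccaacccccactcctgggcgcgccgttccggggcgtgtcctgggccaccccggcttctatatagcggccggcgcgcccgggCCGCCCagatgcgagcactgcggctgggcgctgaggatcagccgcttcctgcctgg
RHOB: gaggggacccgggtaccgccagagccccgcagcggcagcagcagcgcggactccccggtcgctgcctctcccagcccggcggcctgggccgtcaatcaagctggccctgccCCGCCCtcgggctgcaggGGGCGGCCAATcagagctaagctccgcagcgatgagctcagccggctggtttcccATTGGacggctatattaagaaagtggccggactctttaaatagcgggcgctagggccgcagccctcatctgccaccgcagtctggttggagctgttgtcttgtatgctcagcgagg
TXNIP: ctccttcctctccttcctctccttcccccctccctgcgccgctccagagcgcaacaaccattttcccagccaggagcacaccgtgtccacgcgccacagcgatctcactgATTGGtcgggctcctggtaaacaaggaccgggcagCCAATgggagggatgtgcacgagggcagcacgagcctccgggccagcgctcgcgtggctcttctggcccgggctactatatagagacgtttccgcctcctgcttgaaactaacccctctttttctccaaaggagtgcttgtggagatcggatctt
DTWD2: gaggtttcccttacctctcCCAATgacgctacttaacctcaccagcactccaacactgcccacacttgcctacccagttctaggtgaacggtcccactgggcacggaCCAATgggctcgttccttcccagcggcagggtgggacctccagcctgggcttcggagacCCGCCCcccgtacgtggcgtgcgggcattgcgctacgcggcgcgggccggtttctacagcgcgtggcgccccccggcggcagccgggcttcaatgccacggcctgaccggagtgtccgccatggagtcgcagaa

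SREBF1 held 3 GC boxes and no CCAAT box, IGFBP3 held 2 GC boxes, and RHOB held 2 of each. TXNIP held 2 CCAAT boxes and no GC box, and DTWD2 held 2 CCAAT boxes with 1 GC box. A GC box was present in 71.8% of the 71 promoters found for the 99 lower genes, in 66.7% of the 36 found for the 41 higher genes and in 69.4% of 11229 promoters of tested genes. CCAAT was present in 31.0%, 52.8% and 36.5%. The TATA core was present in 4.23%, 8.33% and 5.89%, and the E-box in 8.45%, 8.33% and 10.1%. The median GC content of these promoters was 68.7%, 65.3% and 65.3%. The shares describe letters in these windows and were not tested.

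Among genes of the matrix and of transforming growth factor beta (TGF-beta), the called members were all lower in the mean, and most members did not pass the test. Over all tested genes, 0.841% were called lower and 0.326% higher. Of 25 TGF-beta ligands, receptors and targets, 7 were called lower and 0 higher, with a list median of -0.09 (-0.06 at 24H and -0.12 at 48H). TGFB1, the ligand, moved by -0.10 at 24H and -0.34 at 48H, LTBP3, which holds the latent ligand in the matrix, by -0.13 and -0.44, and PMEPA1, a feedback inhibitor, by -0.11 and -0.45. With GC offsets the adjusted p was 0.133 for TGFB1, 0.0874 for LTBP3 and 0.0365 for PMEPA1. LTBP2 moved by -0.02 and -0.63 (adjusted p = 0.0243 with GC offsets), and TGFBI and LTBP1 lay above CTRL at 24H (0.10 and 0.09) and below it at 48H (-1.05 and -0.64).

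Of 34 other collagens and collagen-processing enzymes, 5 were called lower and 0 higher (median -0.14). The share called lower over all tested genes was 0.841%. COL1A1, a chain of type I collagen, was at 21760, 21110 and 19010 normalised counts in CTRL, 19310, 18890 and 20360 at 24H and 12290, 12940 and 13560 at 48H (mean log2 change -0.38, adjusted p = 0.00378, and 0.00679 with GC offsets). COL1A2 moved by -0.02 at 24H and -1.08 at 48H, COL5A1 by -0.12 and -0.49, and BMP1, which trims procollagen, by -0.08 and -0.41. Their adjusted p-values with GC offsets were 0.00107, 0.0343 and 0.0238. Of 23 basement membrane genes, COL18A1 (-0.05 and -0.38), NID2 (0.04 and -1.03) and the lysyl oxidase LOXL2 (-0.06 and -0.35) were called lower and 0 higher (median -0.11), and of 22 matrix proteases and inhibitors (median -0.049) MMP2 (0.05 and -1.13) and ADAMTS7 (-0.18 and -0.38) were called lower. With GC offsets COL18A1 had a mean change of -0.109 (adjusted p = 0.248), and the adjusted p was 0.0816 for LOXL2 and 0.0824 for ADAMTS7. Fibroblast and mural markers, which share the type I collagens, summed to 34770 to 39390 normalised counts in CTRL, 34860 to 37130 at 24H and 25110 to 27220 at 48H. COL1A1 (mean of 20630 in CTRL and 12930 at 48H) and COL1A2 (8983 and 4260) made up most of this sum. Its fall at 48H therefore repeats theirs and does not describe the other markers. Of 16 such markers tested, 1 (THY1) was called higher and 3 (COL1A1, COL1A2 and PI16) lower (median -0.11), and the fibroblast markers DCN and LUM lay between 0 and 2.24 in every library. Other markers of that list were well expressed, with 860 to 1080 normalised counts of COL3A1, 1240 to 1520 of PDGFRB, 1580 to 1810 of CSPG4, 2100 to 3210 of TAGLN and 421 to 665 of THY1, and their part in the result was not tested. In these bulk libraries fewer cells of a type and less RNA per cell cannot be told apart.

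Of 31 endothelial markers, 3 were called lower and 0 higher, with 25 below CTRL in the mean and a median of -0.14 (-0.05 at 24H and -0.22 at 48H). Of all 14740 tested genes, 7301 lay below CTRL in the mean and 0.841% were called lower. The median GC content of the list was 53.9%, against 48.7% over all tested genes, and the part of GC content in the list's median was not tested. SOX17, an arterial transcription factor, was at 801, 828 and 808 normalised counts in CTRL, 704, 698 and 746 at 24H and 568, 503 and 497 at 48H. The 3 groups did not overlap (mean log2 change -0.41, adjusted p = 0.00445, and 0.00649 with GC offsets). MMRN2, an endothelial matrix protein, moved by -0.16 and -0.32 (adjusted p = 0.0293 with GC offsets), and PDPN, a lymphatic marker, by 0.10 and -0.59. The summed endothelial markers were at 125900 to 138200 normalised counts in CTRL, 125400 to 133000 at 24H and 112100 to 119500 at 48H. Among genes chosen after their values were seen, the endothelial lipase LIPG (-0.09 at 24H and -0.84 at 48H), the prostaglandin transporter SLCO2A1 (-0.14 and -0.80), the secreted ribonuclease RNASE1 (-0.06 and -0.95), the thrombin inhibitor SERPINE2 (-0.04 and -0.79), the matrix link protein HAPLN1 (-0.02 and -0.81) and the netrin receptor UNC5B (-0.03 and -0.53) were lower, and myosin light chain kinase (MYLK) higher (0.13 and 0.43). With GC offsets UNC5B had an adjusted p of 0.0527, and the others passed (adjusted p from 0.000299 for HAPLN1 to 0.021 for MYLK).

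Of 28 p53 target genes, 4 were called higher and 0 lower, with a median of 0.11 (0.02 at 24H and 0.23 at 48H). The share called higher over all tested genes was 0.326%. CDKN1A, the cyclin-dependent kinase inhibitor p21, was at 6300, 6520 and 6616 normalised counts in CTRL, 6548, 6695 and 6622 at 24H and 9644, 9786 and 9651 at 48H. Its 24H libraries overlapped CTRL and its 48H libraries lay far above, so the mean change of 0.31 (adjusted p = 0.00119, and 0.000299 with GC offsets) came from 48H. BTG2 rose by 0.14 and 0.23, the nuclease AEN by 0.10 and 0.31, and ZMAT3 was at -0.03 and 0.65. With GC offsets the adjusted p was 0.0228 for BTG2 and 0.0626 for AEN. None of 38 DNA replication and S phase genes and none of 35 mitosis and spindle genes was called, with medians of 0.01 and 0.04. At an unadjusted p under 0.05 edgeR gave 6 and 7 genes of these lists, against 2428 of all 14740 tested genes. DESeq2 called 1 in each of these lists.

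Interferon-induced genes had the highest median of the 22 lists, 0.20. Of the 56 genes, 5 were called in the mean, all higher, where 0.326% of all tested genes were called higher. At an unadjusted p under 0.05 edgeR gave 37 of the 56, against 2428 of all 14740 tested genes, and 52 of the 56 had a mean change above 0. The median of 0.20 joined one of -0.05 at 24H to one of 0.43 at 48H, and 41 of the 56 differed between the times. GBP2, an interferon-induced GTPase (0.25 and 0.67), and the RNA sensor DDX60 (0.03 and 0.49) were on the same side of CTRL at both times, while OAS2 (-0.21 and 0.98), IFI44 (-0.07 and 0.88) and GBP1 (-0.02 and 0.38) were not. None of the 56 passed the test at 24H, so this split rests on signs at 24H that are uncertain. By edgeR's test the unadjusted p at 24H was 0.622 for DDX60 and 0.751 for GBP1. TLR3, a receptor for double-stranded RNA (0.20 and 0.63), and the nucleotide hydrolase SAMHD1 (0.03 and 0.44), chosen after their values were seen, were higher too. With GC offsets the adjusted p was 0.0499 for GBP2, 0.0832 for DDX60 and 0.0626 for both TLR3 and SAMHD1. Of 25 leukocyte adhesion and chemokine genes, ICAM1 was called higher (-0.06 and 0.78) and CXCL12 lower (0.03 and -0.57), with a median of 0.033.

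Lists on osmolytes, oxidants and protein folding had medians near 0. Of 22 osmolyte, choline and flavin monooxygenase genes, SLC6A6, the taurine transporter, was called lower, from 3751, 3605 and 3205 normalised counts in CTRL to 3322, 3036 and 3296 at 24H and 2131, 2188 and 2566 at 48H (mean log2 change -0.37, adjusted p = 0.0145, and 0.00763 with GC offsets). The list's median was -0.0034. Of 40 NRF2 and antioxidant genes, GPX3, a secreted glutathione peroxidase, was called higher (0.08 and 0.52, adjusted p = 0.0159, and 0.00763 with GC offsets), and the median was -0.0095. None of 37 unfolded protein and integrated stress response genes (median 0.0092), 34 glycolysis and hypoxia genes (-0.018), 14 DUSP, SPRY and SPRED inhibitors (0.028), 75 cytosolic ribosomal proteins (0.012) or 9 keratinocyte, melanocyte and leukocyte markers (-0.071) was called. At an unadjusted p under 0.05 edgeR gave 8, 7, 4, 0 and 1 of them, against 2428 of all 14740 tested genes. DESeq2 called 1, 2, 0, 0 and 0 of them. Of 23 vascular tone and prostanoid genes, PLA2G4B was the 1 called (median -0.099).

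**Figure D4:**
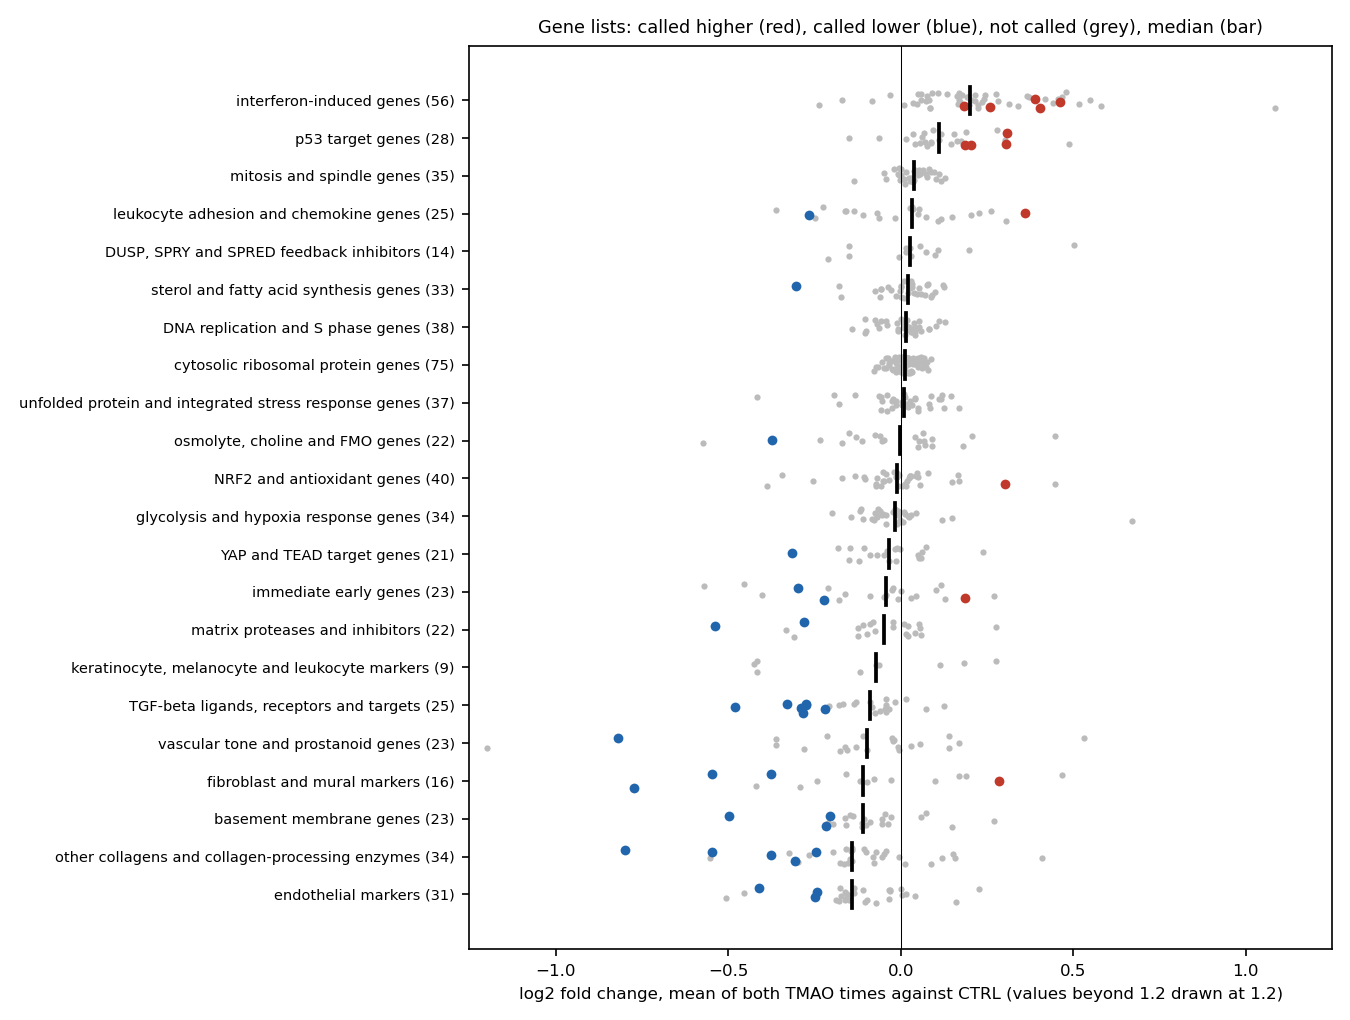
Log2 fold change of each tested member of 22 gene lists for the mean of both TMAO times against CTRL (horizontal axis), with the list's median as a bar and the number of tested members in parentheses. Called members are red (higher) or blue (lower); interferon and p53 lists lie to the right of 0 and collagen and endothelial lists to the left, while most members are grey, not called. The changes are without GC offsets. Median GC contents were 45.6% (interferon), 50.2% (p53), 58.2% (other collagens) and 53.9% (endothelial), against 48.7% over all tested genes.

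A further 32 of the 172 called genes lay on opposite sides of CTRL, 7 higher and 25 lower in the mean, in each case with the sign of 48H. None of the 32 passed the test at 24H, and some lay close to CTRL there, such as NID2 (0.04) and GBP1 (-0.02). Their side of CTRL at 24H is therefore uncertain. PI16, a peptidase inhibitor of fibroblasts, was at 149, 165 and 137 normalised counts in CTRL, 213, 173 and 183 at 24H and 48.9, 31.7 and 42.6 at 48H, so its mean change of -0.77 described neither time. COL6A3 behaved likewise, at 102 to 146, 151 to 156 and 33.4 to 36.1. Neither gene passed the test at 24H (adjusted p = 0.683 for PI16 and 0.735 for COL6A3). Other genes called at 1 time with opposite signs were missed by the mean: IFI44L, an interferon-induced gene (-0.65 at 24H and 1.75 at 48H; adjusted p of the mean 0.206), and COMP, a cartilage matrix protein (0.18 and -2.46; adjusted p of the mean 0.298), at 9.12 normalised counts on average. TMEM256-PLSCR3, a readthrough transcript that overlaps PLSCR3, TMEM256 and TNK1, had 34.5 to 41.2 normalised counts at 24H and 0 in all 3 libraries at 48H, at least 11.7-fold lower against a floor of 3 counts per library; how the counting divided reads among these genes is not given in the sources used here.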

How the data were processed

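RNA of HMEC-1 was sequenced in 3 CTRL, 3 TMAO 24H and 3 TMAO 48H libraries, grouped by their labels. The authors ran the nf-core RNAseq pipeline, their notes name Trim Galore, and they deposited estimated counts for 29740 gene symbols, not normalised. The quantifier, genome build, annotation and strand setting are not given in the sources used here.

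Counts were rounded. The filter filterByExpr of edgeR 4.0.16 (R 4.3.3) kept 14740 genes, and glmQLFit with legacy = FALSE was run on the 9 libraries after TMM scaling (biological coefficient of variation 0.0744). The contrast was the mean of TMAO 24H and TMAO 48H minus CTRL. Each time alone and 48H minus 24H came from the same fit. Normalised counts are scaled to the mean effective library size, intervals are 95%, and a gene was called at a Benjamini-Hochberg adjusted p under 0.05 over all tested genes. In simulated data of 14608 genes, 97 of 100 genes changed 2-fold and 86 of 100 changed 1.41-fold were recovered, with 11 false calls. The changed genes had at least 50 normalised counts and the same change at both times, and no GC trend was simulated. Median mean changes of the reported genes, 0.23 (higher) and -0.29 (lower) on the log2 scale, were smaller than the simulated ones. The recovery therefore does not describe the reported genes.

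Named genes were the 12 higher and 12 lower called genes with the largest lesser change of both times, all 6 TMAO libraries beyond all 3 CTRL and a mean of at least 50 normalised counts, the called members of 22 lists, and 5 genes with opposite signs at the 2 times; 1 called list member is not reported here. The members and lists were chosen with earlier results of these data known. GC content came from GENCODE release 29 transcripts and promoters from RefSeq. Alternatives were DESeq2 1.42.0, voom in limma 3.58.1, RLE factors, other filters, the older fit, a replicate block, 1 TMAO group, glmTreat, GC offsets, removal of ribosomal RNA genes and leaving out each library. Length offsets, a fit of genes with a GC value and sums with overlapping genes were added after seeing the data.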

Additional observations from a re-analysis of the deposited data

Results flagged for a closer look

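A total of 56 genes named in the report changed by different amounts at the 2 times, by the test of 48H against 24H itself in edgeR's fit of all 9 libraries, a contrast that leaves CTRL out although the CTRL libraries enter the estimate of spread (adjusted p from 1.69e-06 to 0.0466). The values are the log2 change at 48H minus that at 24H.

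Among genes higher in the mean and on the same side at both times, the difference was 0.54 for FAM129A, 0.44 for SPEG, 0.36 for MME, 0.35 for TXNIP, 0.31 for FER, 0.36 for THY1, 0.29 for MYLK, 0.44 for GPX3, 0.43 for TLR3, 0.42 for GBP2, 0.41 for SAMHD1, 0.46 for DDX60, 0.55 for CDKN1A and 0.20 for AEN. All 14 were farther from CTRL at 48H. Among lower genes of signalling and transcription it was 0.21 for RHOB, -0.54 for HIC1, -0.45 for SOX17, -0.27 for JAG1, -0.46 for DTX4, -0.50 for UNC5B, -0.60 for SEMA3G, -0.64 for PLA2G4B, -0.49 for SLC6A6 and -0.43 for LOC102723360, and RHOB was the 1 gene of these farther from CTRL at 24H.

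Among lower genes of the matrix, proteolysis and TGF-beta it was -0.59 for COL1A1, -1.06 for COL1A2, -0.36 for COL5A1, -0.33 for COL18A1, -0.33 for BMP1, -0.28 for LOXL2, -0.20 for ADAMTS7, -0.23 for TGFB1, -0.61 for LTBP2, -0.31 for LTBP3, -0.34 for PMEPA1, -0.75 for SERPINE2 and -0.79 for HAPLN1. Among lower secreted or membrane proteins it was -0.75 for LIPG, -0.66 for SLCO2A1 and -0.88 for RNASE1.

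For genes on opposite sides of CTRL at the 2 times, the difference was 1.19 for OAS2, 0.96 for IFI44, 2.40 for IFI44L, 0.40 for GBP1, 0.85 for ICAM1 and 0.68 for ZMAT3 on the higher side at 48H, and -2.21 for PI16, -2.15 for COL6A3, -2.64 for COMP, -1.15 for TGFBI, -0.73 for LTBP1, -1.07 for NID2, -1.18 for MMP2, -0.69 for PDPN and -0.60 for CXCL12 on the lower side. TMEM256-PLSCR3, at 0 in all 3 libraries at 48H, had a difference of -3.55 or lower against the floor of 3 counts. None of these opposite-side genes passed the test at 24H by itself, so their side of CTRL at 24H is uncertain. Groups of 3 libraries were not tested for single outlying libraries.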

How the results depend on the processing

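The sign of the members' mean change was kept in the 21 fits in which they were followed, in 140 of 140 genes, or 138 of 138 where a GC or length value was needed, and none of the 24 genes named by rule reversed in the mean. Not all members stayed on the same side at both times: 3 did not with GC offsets, 5 without CTRL replicate 1, 3 without CTRL replicate 2, 2 without CTRL replicate 3 and 5 without TMAO 24H replicate 2. How many genes passed depended on the fit, and the cause was not tested. The report gives 20 genes at 1.4-fold, 172 at any fold, 140 on the same side and 81 of those with a difference between times. DESeq2 gave 31, 522, 450 and 210. The replicate number as a block gave 9, 37, 31 and 25; same-numbered libraries deviated with correlations of -0.12 to 0.091 and differently numbered ones with -0.1 to 0.16, so the numbers were not taken to pair the samples. Length offsets gave 377, 322 and 172 for the last 3 counts. Treating the 6 TMAO libraries as 1 group with no time term called 0 genes by edgeR at either threshold (1531 at an unadjusted p under 0.05; that spread includes the difference between the times), and glmTreat against 1.4-fold called 0 (50 unadjusted). GC offsets gave 14, 128, 99 and 63.

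Leaving out 1 library gave 7 to 43, 20 to 333, 15 to 284 and 14 to 142. The same-side count was 15 without CTRL replicate 1, 17 without CTRL replicate 2, 80 without TMAO 24H replicate 1, 23 without TMAO 24H replicate 2, 53 without TMAO 48H replicate 2 and 284 without TMAO 48H replicate 3; the difference between times passed in 44 genes without TMAO 24H replicate 3. Interferon-induced genes called were 5 in the report, 20 by DESeq2 (19 higher), 2 with GC offsets and 0 with the block, p53 targets 4, 8, 4 and 1, endothelial markers 3, 9, 3 and 1, basement membrane genes 3, 8, 1 and 1, and TGF-beta genes 7, 9, 5 and 2.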
